A study of Mus musculus with 2 samples.

Results

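Of 32285 genes listed, 6 were examined: Commd3, Plac8, Hmgn2, Ube2m, Rsrp1 and Cdk8. They were selected on the ratio of knockout to control in the raw counts of both libraries, because it pointed the same way in one cell type after another, the first 4 lower and the last 2 higher in the knockout. The direction and size of these differences therefore describe how the genes were chosen and test nothing. The label held with exceptions: 4 genes kept one direction in all 12 cell classes compared, and Hmgn2 and Ube2m did so in 11.

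The data came from single-cell RNA sequencing (Chromium 3' chemistry) of flushed mouse bone marrow, with 1 library per genotype. The control, labelled WT, was a Ddx41 fl/fl littermate without Cre and with intact cGAS. The other library, labelled DKO, was VavCre:Ddx41 fl/fl, cGAS-/-, so that the floxed Ddx41 allele was shared and Cre recombination and cGAS loss both separated the animals. Both were young adults. VavCre acts in hematopoietic cells and is also expressed in oocytes and endothelial cells. Stromal cells were not its intended target, but the stromal-like class was named with the endothelial markers Cdh5 and Emcn among others. It may therefore hold endothelial cells. The cGAS knockout did not depend on Cre. Ddx41 encodes a DEAD-box helicase that the study links to G-quadruplexes, and Cgas encodes the DNA sensor cGAS.

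After filtering, 18599 control and 13682 DKO cells remained, holding 117938650 and 114152170 unique molecular identifiers (UMIs, each standing for 1 captured RNA molecule). The median cell held 4858 UMIs in control and 6892 in DKO, hemoglobin RNA made up 28.6% and 36.4% of UMIs, and 80 cell barcodes occurred in both libraries. Cells were clustered, and 12 classes with at least 50 cells in each library were named from markers. The control was deposited with all barcodes and DKO with called cells only, so cells were called here in the control alone. Because 1 mouse stood for each genotype, no test between genotypes was possible, and every interval below is a 95% interval that covers counting error only. Levels are UMIs per 1000000 UMIs of a class (CPM). Genotype, animal and library preparation cannot be told apart, nor can fewer cells of a subtype from less RNA per cell within a class. Ddx41 itself stood at 20.3 CPM in control and 7.95 CPM in DKO over the 12 classes, and Cgas at 13.5 and 7.04 CPM. Cgas was lower in DKO in 11 classes. The exception was the stromal-like class, where its interval lay above 0 (log2 ratio 3.41 with 1 count added). Its control level was the lowest there. That class held 702400 UMIs in control and 396692 in DKO, so the ratio rests on few Cgas UMIs. Reads near the 3' end may lie outside the deleted parts, which was not tested.

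As background, the genes have distinct known roles. COMMD3 is a subunit of the COMMD complexes that sort membrane proteins in endosomes. PLAC8 is a small cysteine-rich protein abundant in myeloid progenitors, monocytes and plasmacytoid dendritic cells. HMGN2 binds nucleosomes and loosens chromatin, and UBE2M (also called UBC12) is an E2 enzyme that attaches the ubiquitin-like protein NEDD8 to cullins. RSRP1 is an arginine- and serine-rich protein related to splicing regulators, and CDK8 is the kinase of the Mediator module that tunes transcription by RNA polymerase II.

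The genes lie on 4 chromosomes in GRCm38. Hmgn2 (chr4:133964738-133968650) and Rsrp1 (chr4:134923592-134927671) share chromosome 4, and Plac8 (chr5:100553725-100572245) and Cdk8 (chr5:146231230-146302874) share chromosome 5. Commd3 (chr2:18672384-18676231) ends 787 bases before Bmi1, and Ube2m (chr7:13035120-13038275) is the shortest of the set. A processed pseudogene of 872 bases, Gm15739, lies inside Cdk8 on the same strand and is not among the genes counted. Whether reads from Gm15739 were counted as Cdk8 was not tested. In the 250 bases before each RefSeq start (GRCm38.p6), a G-quadruplex motif, 4 runs of at least 3 G separated by 1 to 7 bases on either strand, was found for Commd3, Plac8 and Rsrp1, against 16.2% of 27025 promoters. Those 3 sequences are shown up to the annotated gene start because the study concerns such structures; capitals mark the match, which lies on the opposite strand in Commd3 and Plac8, and the last base of the Plac8 match is not shown.
Commd3, chr2:18672185-18672383, plus strand: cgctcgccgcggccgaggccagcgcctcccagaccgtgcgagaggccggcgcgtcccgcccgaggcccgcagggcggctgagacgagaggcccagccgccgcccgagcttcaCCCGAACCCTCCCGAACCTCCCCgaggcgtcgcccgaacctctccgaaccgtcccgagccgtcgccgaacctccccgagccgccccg
Plac8, chr5:100572246-100572455, minus strand: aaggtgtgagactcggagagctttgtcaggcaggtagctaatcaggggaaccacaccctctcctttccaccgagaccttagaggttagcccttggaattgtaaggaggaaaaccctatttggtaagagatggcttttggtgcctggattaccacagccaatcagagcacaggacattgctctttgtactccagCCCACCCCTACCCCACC
Rsrp1, chr4:134923375-134923591, plus strand: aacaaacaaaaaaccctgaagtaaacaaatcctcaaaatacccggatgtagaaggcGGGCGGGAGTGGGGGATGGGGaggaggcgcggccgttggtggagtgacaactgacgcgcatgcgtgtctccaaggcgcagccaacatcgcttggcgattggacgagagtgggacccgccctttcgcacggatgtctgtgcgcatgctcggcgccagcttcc
The GC box GGGCGG was in 4 of the 6 windows (32.9% of all promoters), the E-box CACGTG in 3 (6.05%) and CCAAT in 2 (34.5%). TGACGTCA, CCGGAA and TATAAA were in none of the 6, against 1.62%, 12.2% and 13% of all promoters. Both strands were searched, and a G-rich motif can overlap a GC box. These are matches of letters and not measured sites.

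**Figure D1:**
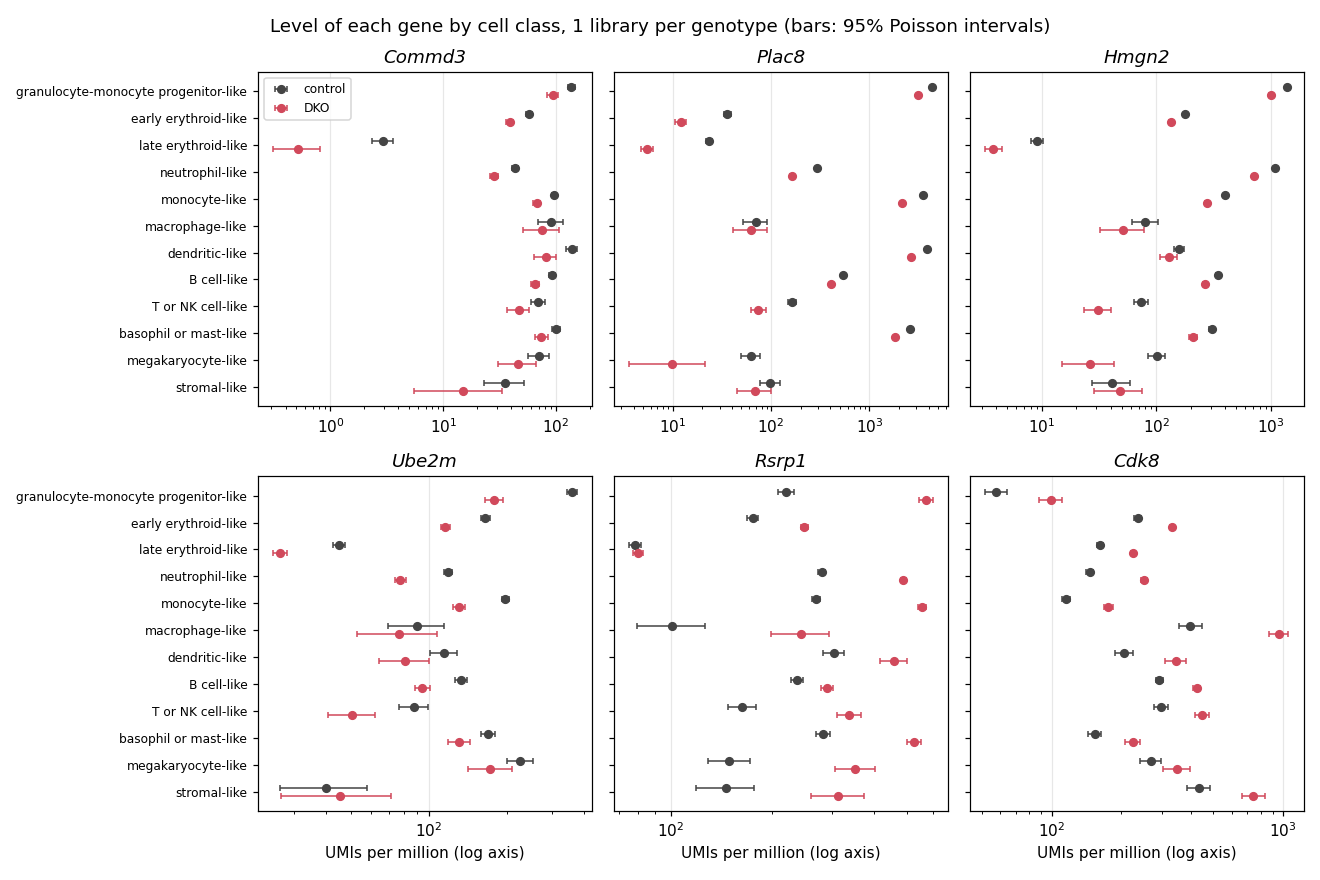
Level of the 6 genes in CPM (log axis) in the 12 cell classes of the control (dark) and DKO (red) libraries, with 95% Poisson intervals. Commd3, Plac8, Hmgn2 and Ube2m points of DKO lie left of control in nearly every class, and Rsrp1 and Cdk8 points lie right of it.

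The share of all genes with an interval off 0 in a class, among those of at least 20 CPM there in a library, is the background for the class counts that follow. Below 0 it was 20.1% in granulocyte-monocyte progenitor-like, 33.9% in early erythroid-like, 55.8% in late erythroid-like, 23.1% in neutrophil-like, 26.2% in monocyte-like, 6.2% in macrophage-like, 10.6% in dendritic-like, 19.8% in B cell-like, 14.1% in T or NK cell-like, 16.5% in basophil or mast-like, 14.1% in megakaryocyte-like and 3.74% in stromal-like cells. Above 0 it was 42.8% in granulocyte-monocyte progenitor-like, 35.8% in early erythroid-like, 29.8% in late erythroid-like, 53.6% in neutrophil-like, 44.8% in monocyte-like, 7.14% in macrophage-like, 23.7% in dendritic-like, 38.5% in B cell-like, 26.6% in T or NK cell-like, 21.2% in basophil or mast-like, 17.9% in megakaryocyte-like and 17.1% in stromal-like cells. Because the 6 genes were chosen on these same ratios, nothing is read from their counts against this background.

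Commd3 was lower in DKO in all 12 classes. Its level was 136 CPM in control and 93.4 CPM in DKO in granulocyte-monocyte progenitor-like cells, 96.5 and 67.6 CPM in monocyte-like cells, and 57.8 and 38.8 CPM in early erythroid-like cells. In late erythroid-like cells it was 2.93 and 0.517 CPM, from 89 and 19 UMIs, the lowest class of both libraries. The class-stratified log2 ratio of DKO over control was -0.56 (interval -0.62 to -0.51), and 9 of 12 class intervals lay below 0. The exceptions were the macrophage-like, megakaryocyte-like and stromal-like classes, whose intervals included 0. In control the dendritic-like class (137 CPM) and the progenitor-like class were highest, with overlapping intervals.

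Plac8 had the widest range of levels. It stood at 4323 CPM in control and 3136 CPM in DKO in granulocyte-monocyte progenitor-like cells, followed by dendritic-like (3865 and 2657 CPM), monocyte-like (3531 and 2149 CPM) and basophil or mast-like cells (2607 and 1831 CPM). These 4 classes kept the same order in both libraries, with no overlap between neighbours. The basophil or mast-like class is mixed: at a finer clustering 352 of its 480 control cells and 120 of its 194 DKO cells fell in a cKit+ progenitor-like cluster led by Angpt1 and Meis1, and 101 and 58 in a basophil or mast-like cluster. Plac8 was at 2443 and 1451 CPM in the progenitor-like cells of that class and 3734 and 3293 CPM in the basophil or mast-like cells. In the smaller cluster the intervals of Commd3 and Cdk8 included 0. Outside them the level was 539 and 406 CPM in B cell-like and 23.2 and 5.44 CPM in late erythroid-like cells. The stratified log2 ratio was -0.64 (-0.65 to -0.62). The ratio was below 0 in all 12 classes, from -2.45 in megakaryocyte-like cells (81 and 6 UMIs) to -0.12 in macrophage-like cells, and 10 intervals lay below 0. In the megakaryocyte-like class the summed markers of other classes were at 78890 CPM in control and 50569 CPM in DKO, hemoglobin at 15.5% and 8.63% of UMIs, and cell cycle genes at 775 and 163 CPM, and their part in the Plac8 value was not tested. With every cell thinned to 1000 UMIs, 92.0% of control and 75.3% of DKO monocyte-like cells held a Plac8 UMI. In late erythroid-like cells, which are not known for Plac8, the thinned shares were 2.33% and 0.526%. The part of free RNA in these shares was not tested. At most 94.4% of the control Plac8 UMIs in that class could be free RNA. The median cell there held 5446 and 8131 UMIs, against 10263 and 13298 in the monocyte-like class. Without thinning the monocyte-like shares were 99.2% and 99.3%.

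Hmgn2 was highest in progenitor-like and neutrophil-like cells of both libraries. It measured 1392 CPM in control and 1005 CPM in DKO in granulocyte-monocyte progenitor-like cells, and 1086 and 707 CPM in neutrophil-like cells. The late erythroid-like class held 9.10 and 3.78 CPM. The stratified log2 ratio was -0.55 (-0.57 to -0.53), and 10 class intervals lay below 0. Stromal-like cells differed, at 41.3 CPM in control and 47.9 CPM in DKO (29 and 19 UMIs), a log2 ratio of 0.24 whose interval (-0.70 to 1.10) included 0. In that class the summed markers of other classes were at 113156 CPM in control and 54352 CPM in DKO and hemoglobin at 22.4% and 9.78%, and their part was not tested. The last 500 bases of the Hmgn2 transcript share 60.3% of their 60-base words with Gm10282, so the assignment of reads between the pair is uncertain. Gm10282 held 617 UMIs in control and 437 in DKO, against 47703 and 28460 for Hmgn2. In their last 500 bases the other 5 genes shared no such words with other genes. The rest of the transcripts was not searched.

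Ube2m differed most in granulocyte-monocyte progenitor-like cells, at 358 CPM in control and 179 CPM in DKO, with a log2 interval of -1.13 to -0.87. Megakaryocyte-like cells followed in level at 225 and 173 CPM. The stratified log2 ratio was -0.61 (-0.65 to -0.57), with 10 class intervals below 0. In stromal-like cells the level was 39.9 CPM in control and 45.4 CPM in DKO, with an interval that included 0, in the class whose markers of other types and hemoglobin differed as given for Hmgn2.

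Rsrp1 was higher in DKO in 11 of 12 classes with an interval above 0. The level was 220 CPM in control and 570 CPM in DKO in granulocyte-monocyte progenitor-like cells, 269 and 554 CPM in monocyte-like cells and 280 and 489 CPM in neutrophil-like cells. The late erythroid-like class was level with 78.2 and 79.9 CPM, a log2 ratio of 0.03 (-0.05 to 0.11). The stratified log2 ratio was 0.73 (0.71 to 0.76).

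Cdk8 was the only one of the 6 genes with every class interval on one side of 0. Its ratio ran from 0.38 in megakaryocyte-like cells (268 CPM in control, 348 CPM in DKO) to 1.26 in macrophage-like cells (398 and 956 CPM). The stratified log2 ratio was 0.58 (0.55 to 0.60). Among classes its order differed from that of the lower genes: stromal-like (433 CPM) and macrophage-like cells (398 CPM) led in control with overlapping intervals, and macrophage-like cells led in DKO (956 against 744 CPM, no overlap). In both libraries granulocyte-monocyte progenitor-like cells were lowest (57.6 and 99.2 CPM). The median control cell held 801 UMIs in the macrophage-like, 1335.5 in the stromal-like and 20878 in the granulocyte-monocyte progenitor-like class. Free RNA could make up at most 46.6%, 19.9% and 35.0% of the control Cdk8 UMIs of these classes. The part of depth and free RNA in this class order was not tested.

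**Figure D2:**
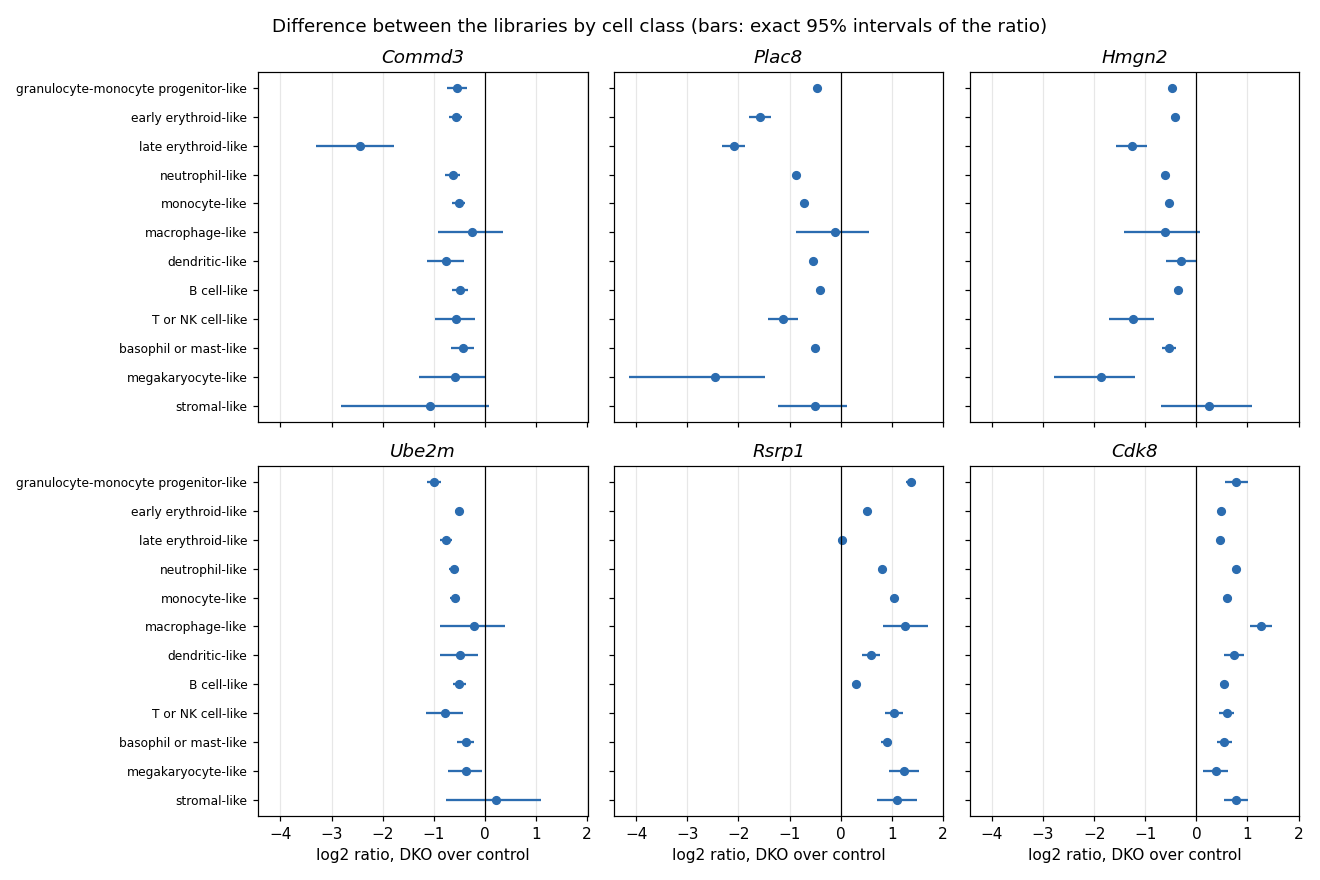
Log2 ratio of DKO over control for the 6 genes by cell class, with exact 95% intervals of the ratio; the vertical line marks 0. Cdk8 lies right of 0 in all 12 classes, and the stromal-like points of Hmgn2 and Ube2m (0.24 and 0.21) are on the other side from the rest.

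One-sided behaviour across classes was not rare. Of 559 genes with at least 20 CPM in a library of every class, 49 (8.77%) were lower in DKO in all 12 and 26 (4.65%) were higher. With each interval off 0 as well, 11 (1.97%) were lower and 3 (0.537%) higher, Cdk8 being 1 of these 3. Of the 6 genes, 4 passed that minimum in every class; Commd3 and Hmgn2 passed it in 11. Over 10915 genes at the minimum in some class, the stratified interval lay below 0 for 26.2% and above 0 for 49.2%, and a stratified log2 ratio at least 0.5 from 0 was reached by 3.56% of genes downward and 6.64% upward. The median stratified ratio of these 10915 genes was 0.11, and that of the 559 genes was -0.07. Among genes on one side in every class, those with low ratios included Ifi27 (-1.59), Isg15 (-1.49), Gm10076 (-1.43) and Ifitm3 (-0.91), and Plac8 was 8th lowest; the highest were Rsrp1, Cdk8, Picalm (0.55), Trim56 (0.46) and Ago2 (0.46). Centring each class on its median gene changed the counts to 114 lower and 8 higher.

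Finer clusters separated the genes. Clusters with at least 50 cells in each library numbered 28. Commd3, Plac8 and Cdk8 stayed on their side of 0 in all 28. Hmgn2 and Ube2m did so in 27, the stromal-like cluster being the exception. The genes were chosen on these same counts, and no share over all genes was taken across clusters. These cluster counts are therefore descriptions. Rsrp1 was above 0 in 21, and 6 clusters had an interval below 0. Of these, 4 were late erythroid-like. The lowest, led by Isg15 and Bpgm, held 16.4 CPM in control and 5.25 CPM in DKO, a log2 ratio of -1.61 (-2.18 to -1.14). Another was B cell-like, led by Agbl1 and Vpreb3 (342 and 287 CPM), and the last was an unnamed cluster led by March3 and Reln, where Rsrp1 reached 1238 and 562 CPM.

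**Figure D3:**
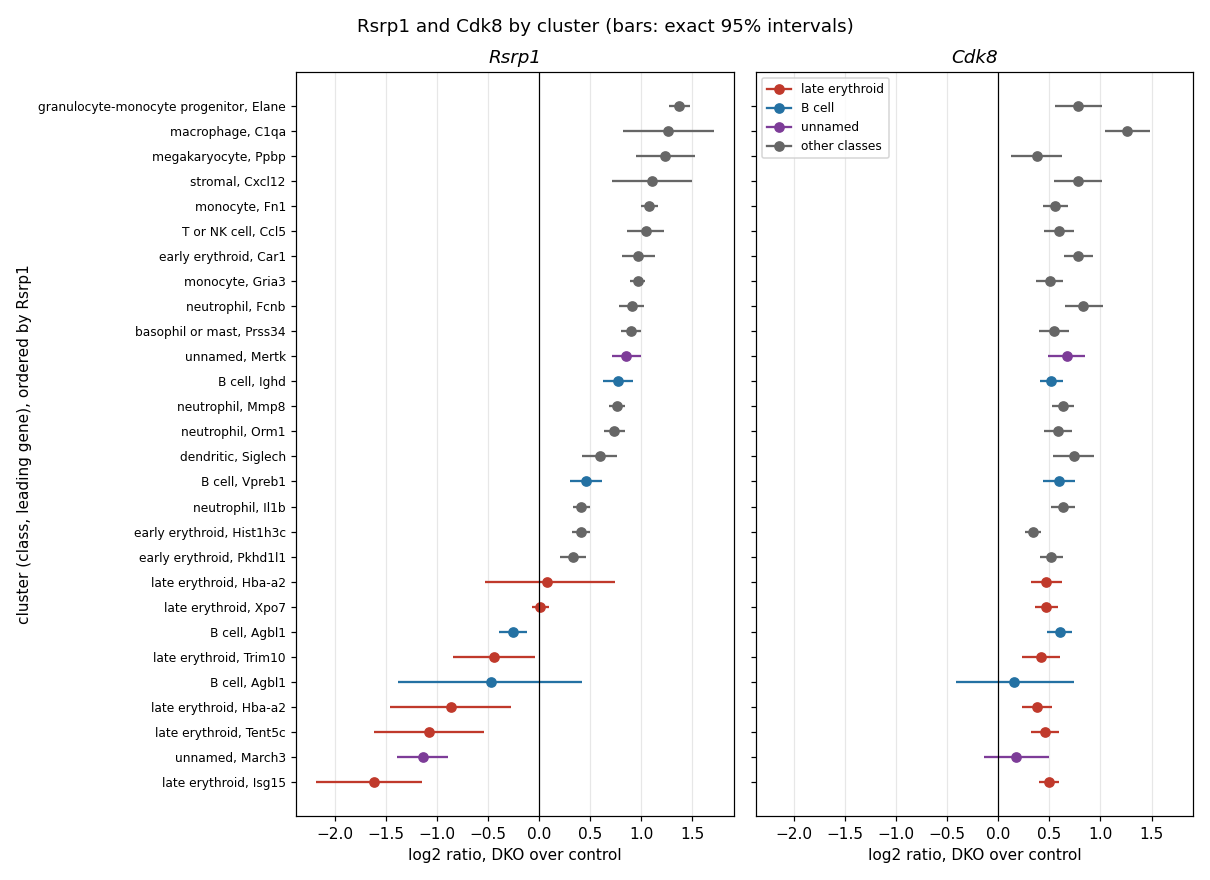
Log2 ratio of DKO over control for Rsrp1 (left) and Cdk8 (right) in 28 clusters, ordered by Rsrp1, with exact 95% intervals. Late erythroid-like clusters (red) lie near or left of 0 for Rsrp1 and right of 0 for Cdk8.

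Erythroid cells were then divided by hemoglobin share, which rises as they mature. In cells with under 15% hemoglobin Rsrp1 was at 187 CPM in control and 296 CPM in DKO. At 15 to 40% it was at 184 and 259 CPM (log2 ratio 0.50, 0.37 to 0.63), and at 40 to 75% at 266 and 260 CPM. The direction differed between the last stages: 47.5 and 111 CPM at 75 to 90% (log2 ratio 1.23, 1.11 to 1.35), and 11.4 and 7.58 CPM at 90 to 100% (-0.60, -0.98 to -0.19). Cell numbers also differed, with 3683 control and 1418 DKO cells at 75 to 90% and 1406 and 2617 at 90 to 100%. Stages can pool cells of several clusters, which also differed in number. The cluster led by Isg15 and Bpgm held 2188 control and 857 DKO cells. The part of this mix in the Rsrp1 values was not tested. Cdk8 was higher in DKO at each of the 5 stages, with 118 and 194 CPM at the last. Commd3, Plac8, Hmgn2 and Ube2m were lower at each, though the Commd3 interval at 15 to 40% included 0. No share over all genes was taken by stage, so these directions describe the chosen genes.

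**Figure D4:**
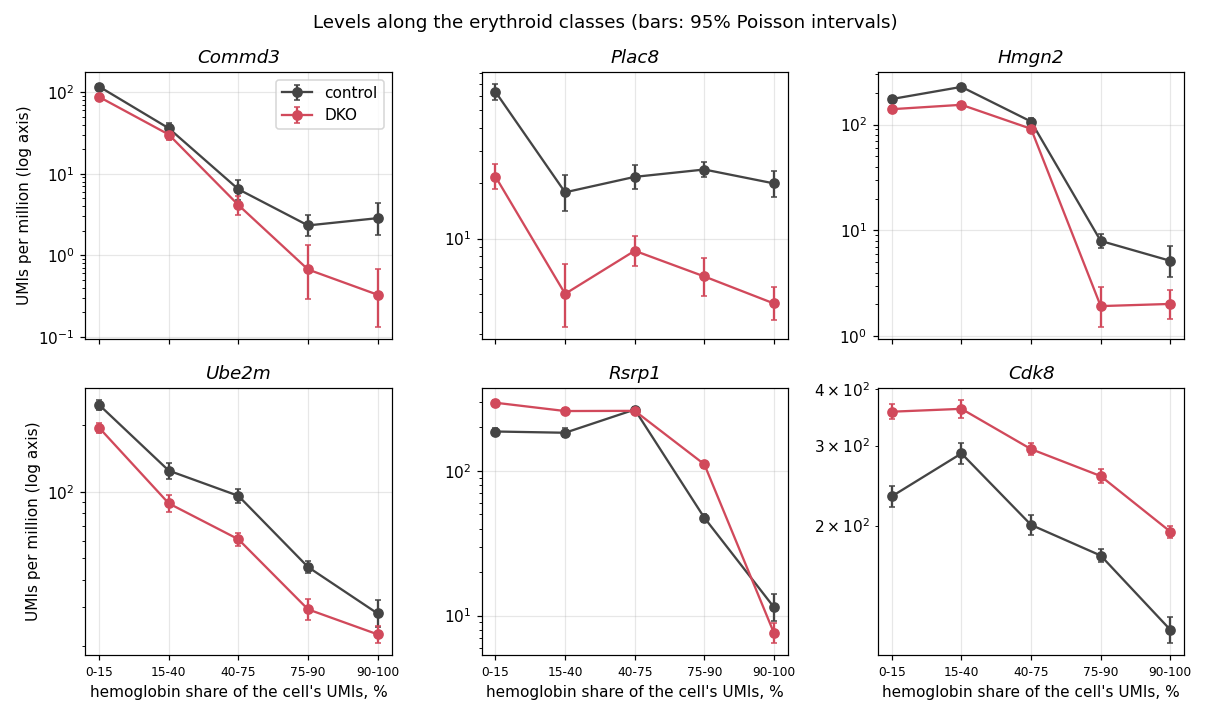
Level of the 6 genes in CPM (log axis) against the hemoglobin share of a cell's UMIs in erythroid classes, with 95% Poisson intervals. The Rsrp1 lines cross, while the Cdk8 line of DKO stays above control.

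The 6 genes differed in their level in near-empty barcodes relative to cells. In control barcodes with 100 UMIs or fewer, which were taken as free RNA, Cdk8 was at 1916 CPM (1874 to 1959). This was above its level in all 12 classes. The Cdk8 level in these barcodes was 10.95 times its level over the cells of the 12 classes (175 CPM), the highest ratio among the 559 genes. Rsrp1 was at 362 CPM, 1.82 times its cell level and above all 12 control classes, while its DKO classes reached 570 CPM. Commd3 (50.1 CPM), Ube2m (102 CPM), Plac8 (773 CPM) and Hmgn2 (220 CPM) had ratios from 0.529 to 0.868. The most free RNA could bring, bounded by markers of other cell types, was 17.7% to 74.6% of a class's Cdk8 UMIs in control, and 100% of the Plac8 UMIs of macrophage-like cells. In late erythroid-like cells the bound was 94.4% for Plac8, 68.6% for Hmgn2, 48.5% for Commd3 and 6.45% for Ube2m. For Plac8 it was also 48.6% in early erythroid-like and 41.9% in megakaryocyte-like cells. The largest bound for Rsrp1 was 34.7%, in macrophage-like cells. No such barcodes were used for DKO, so the part of free RNA in the differences was not tested.

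Cdk8 levels, pooled over classes, also differed with depth. In cells with 500 to 1000 UMIs Cdk8 was at 781 CPM in control and 1342 CPM in DKO. In cells with 10000 or more it was at 107 and 211 CPM. The lowest range held 7 classes and the highest 10, so depth and class makeup are not separated in these levels. Each gene kept its direction in all 5 ranges of UMIs per cell. The intervals of Commd3 at 500 to 1000 UMIs and of Ube2m below 2000 UMIs included 0. The Cdk8 stratified ratio lay between 0.69 and 0.78 within these ranges. No share over all genes was taken by range, so these directions describe the chosen genes. Across 24 points (12 classes in 2 libraries), the genes most like Cdk8 were Gm42418 (Pearson's r 0.918), Lars2 (0.902) and Camk1d (0.894), given as a description over points that share libraries. Gm42418 and Camk1d were at 7.27 and 8.33 times their cell level in free RNA. For Commd3 the nearest were Ndufa7 (0.962), Ppia and Cox8a, for Plac8 Frg1 (0.851), for Hmgn2 Hmgb2 (0.891) and for Ube2m Eif5a (0.893).

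**Figure D5:**
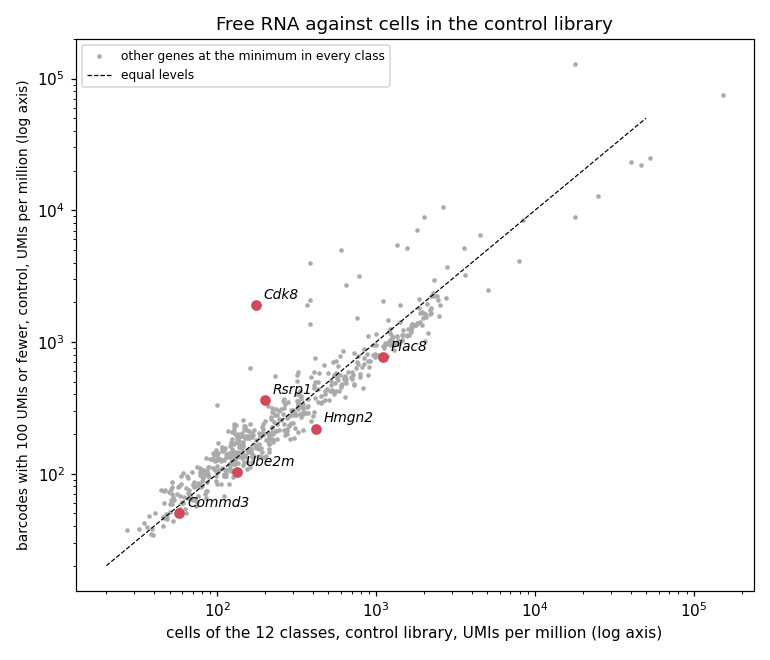
Free RNA (barcodes with 100 UMIs or fewer) against cells of the 12 classes in the control library, both in CPM on log axes, for genes at the minimum in every class (grey) and the 6 genes (red). Cdk8 (1916 against 175 CPM) sits far above the dashed line of equal levels.

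Partners of each gene were read from lists of known function, beside all 10915 genes, of which 26.2% had a stratified interval below 0 and 49.2% above. Of 12 other COMMD and CCC complex genes at the minimum, 7 had a stratified interval below 0 and 3 above, with a median of -0.12; Commd4 was lowest (-0.42) and Commd10 highest, at 15 CPM in control and 35.2 CPM in DKO (1.57). In a chosen list of 9 HMG genes, which does not cover the whole family, the 7 others at the minimum lay below 0. Their median was -0.12, from Hmga2 (-1.04) to the abundant Hmgb1 (-0.05). Of 26 other NEDD8 genes, 13 lay below and 10 above (median -0.06), from the signalosome subunit Cops6 (-0.51) to the cullin Cul3 (0.32). Among 25 other SR proteins and kinases, 8 lay below and 17 above (median 0.12), from Srsf5 (-0.33) to the kinase Srpk2 (0.48). In the Mediator kinase module 5 of 6 others lay above 0 (median 0.22), led by Med13l (0.56), while cyclin C, Ccnc, was at -0.02 with an interval that included 0. No other PLAC8 family gene reached the minimum. Against a median of 0.11 over all 10915 genes and -0.07 over the 559 at the minimum in every class, these medians are descriptions. Of 10 cell cycle genes 3 lay below and 5 above (median 0.04), from Cdk1 (-0.35) to Mki67 (0.35).

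Adjacent genes were read in the same way. Of the 5 protein-coding genes on each side of the 6 genes, 60 in all, 30 reached the minimum, with 8 intervals below 0, 21 above and 1 including 0, beside the 26.2% below and 49.2% above among all genes. None was 0.5 or more from 0, a distance that 3.56% of all genes reached downward and 6.64% upward. The farthest were Coq2 beside Plac8 (-0.41), Syf2 beside Rsrp1 (-0.35), Pip4k2a beside Commd3 (0.34), Chmp2a beside Ube2m (-0.33), Zdhhc18 beside Hmgn2 (0.29) and Rnf6 beside Cdk8 (0.16). Bmi1, next to Commd3, was at -0.01 (-0.16 to 0.15).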

How the data were processed

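Bone marrow of 1 control and 1 DKO mouse was profiled. Per the file headers, the authors made the deposited UMI counts with Cell Ranger 7.1.0, and per the labels on mm10; whether intronic reads were counted is not given in the sources used here. The control table held 1518290 barcodes and DKO 14142. Control cells were called above 4869 UMIs, or from 500 UMIs by a multinomial test against barcodes with at most 100 UMIs (FDR 0.01). Cells over 20% mitochondrial UMIs and Scrublet doublets (475 and 245 cells, 2.49% and 1.76%) were removed. Cells were clustered with scanpy 1.11.5 (2000 variable genes, 30 components, Leiden resolution 1.0), and clusters were named when at least 3 markers defined them. A cluster with 3 markers stayed unnamed where more markers of another class led it (1 led by Mertk) or its depth was low and none of its markers led (1 led by March3 and Reln); plasma cells were too few. UMIs were summed per class. Log2 ratios had 1 count added, with exact binomial intervals; the stratified ratio was Mantel-Haenszel with a Greenland-Robins interval. Scripts were tested on simulated data. No test between genotypes was made. Positions came from GENCODE M21 and promoters from RefSeq. The members and lists were chosen with earlier results of these data known; named genes were the members, both targeted genes, list extremes, the farthest neighbours, the likest genes and the 5 most shifted one-sided genes in each direction. Some genes that this rule names are not reported here. Intervals cover counting error only.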

Additional observations from a re-analysis of the deposited data

Results flagged for a closer look

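Rsrp1, higher in DKO in the stratified ratio, had a log2 ratio with its interval below 0 in 6 clusters, opposite to most of its other clusters. In late erythroid-like clusters the ratio was -1.61 (led by Isg15), -0.86 (led by Hba-a2), -0.44 (led by Trim10) and -1.08 (led by Tent5c). It was -0.25 in a B cell-like cluster led by Agbl1 and -1.14 in the unnamed cluster led by March3. The difference between clusters was not tested, since each genotype had 1 library.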

How the results depend on the processing

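No direction of a stratified ratio reversed under any alternative run. Over them the log2 ratio ran from -0.67 to -0.50 for Commd3, -0.76 to -0.62 for Plac8, -0.69 to -0.45 for Hmgn2, -0.71 to -0.56 for Ube2m, 0.65 to 0.82 for Rsrp1 and 0.54 to 0.75 for Cdk8. Centring on the median gene gave -0.67 for Commd3, -0.76 for Plac8, -0.69 for Hmgn2, -0.68 for Ube2m and 0.65 for Rsrp1. Scaling without hemoglobin gave 0.76 for Rsrp1 and 0.65 for Cdk8, and only barcodes above the UMI threshold gave -0.46 for Hmgn2 and 0.61 for Cdk8. Leiden resolution 2.0 gave -0.65 for Plac8. Classes of at least 200 cells gave -0.72 for Plac8 and 0.68 for Rsrp1, with 7 of 7 classes on the main side for each gene. Of the alternatives chosen after seeing the data, hemoglobin under 50% gave 0.82 for Rsrp1 and 0.63 for Cdk8. Class and UMI range as strata gave -0.63 for Commd3, -0.59 for Hmgn2, -0.71 for Ube2m and 0.75 for Cdk8. Clusters as strata gave -0.50 for Commd3, -0.62 for Plac8, -0.45 for Hmgn2, -0.56 for Ube2m, 0.67 for Rsrp1 and 0.54 for Cdk8. Genes lower and higher in every class numbered 77 and 45 of 1031 at 10 CPM, 28 and 12 of 232 at 50 CPM, 114 and 8 of 559 after centring, and 202 and 60 of 1974 without hemoglobin, against 49 and 26. The cause was not tested. No paired analysis was possible because each genotype had 1 library, and depth limits the macrophage-like, megakaryocyte-like and stromal-like classes most.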
